A study of Mus musculus with 4 samples.

Results

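Glycosyltransferases and glycan sulfotransferases are the Golgi and endoplasmic reticulum enzymes that build the sugar chains of glycoproteins, glycolipids and proteoglycans. The set was defined by gene symbol, as the probe sets whose single annotated symbol names a family of such enzymes, leaving out Hs3st1. It was drawn up with earlier results of these data known. Each gene was represented by its probe set with the highest mean signal over the 4 arrays. The rule gave 65 genes, measured by 77 probe sets, out of 8251 genes with a single symbol on the array. The set also holds Golgi mannosidases, which trim chains, and Ugdh, which makes a sugar donor.

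Total RNA was measured on 4 Affymetrix MG_U74Av2 arrays, 1 per culture. The group of extraembryonic endoderm (XEN) cells, lines of the lineage that forms yolk sac endoderm, had 3 cultures. IM8A1-II was the IM8A1 line (PO strain) at passage 27, grown in RPMI 1640 plus 20% FBS on tissue culture plastic, for 4 days. XEN1-3 (ICR strain) was at passage 18, on gelatin in 70% EMFI-CM. IM8A1-I was the IM8A1 line at passage 27 on gelatin in the same kind of medium as XEN1-3. The embryonic stem (ES) cell group was 1 culture of R1 cells, pluripotent cells kept undifferentiated on gelatin with LIF. The 3 XEN cultures stand for only 2 lines, and all spread was estimated from them, so that p-values measure the spread between these cultures and assume that ES cells vary alike.

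Sugar chains are built stepwise, each enzyme adding to what the one before it made. N-glycans are trimmed by mannosidases and branched by the Mgat enzymes, while mucin-type O-glycans are started by the Galnt enzymes and branched by the Gcnt enzymes. Galactosyl- and N-acetylglucosaminyltransferases then extend the chains, and sialyl- and fucosyltransferases cap or decorate them. Heparan sulfate is polymerised by the Ext enzymes and sulfated by the Ndst and Hs families. Sugar epitopes are used as stage markers of early mouse cells, among them the Lewis X antigen of ES cells, whose fucose is added by Fut9. XEN cells secrete a basement membrane rich in glycoproteins and in heparan sulfate proteoglycan.

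Signals are in arbitrary units. A background limit was set at the 40th percentile of all values, 27.3 units, which is not a detection call. Differences are XEN minus ES on the scale log2(signal + 10.5 units), where the offset is the 25th percentile of all values, and they understate the change of dim genes. Of the 65 genes, 47 reached the limit on at least 1 array and were tested, and 18 did not. Those 18 read between 1.4 and 25.8 units on all arrays and were B3galt1, B3galt2, B3galt4, Chst2, Fut1, Fut2, Fut4, Galnt6, Has2, Mgat3, St3gal2, St3gal3, St6galnac1, St6galnac3, St6galnac5, St6galnac6, St8sia3 and St8sia4. At or above the limit were 36 of the 65 genes in IM8A1-II, 37 in XEN1-3 and 37 in IM8A1-I, against 34 in ES cells.

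The arrays matched their labels by marker genes. Of 10 pluripotency markers 9 were under the limit in each XEN culture and 0 in ES cells, and of 12 extraembryonic endoderm markers 0 were under it in each XEN culture and 6 in ES cells. The ES array came from another chip lot than the 3 XEN arrays, per the file headers, so a lot difference and a lineage difference cannot be told apart. The run record of IM8A1-II bears the unexplained letters DIFF, and that of XEN1-3 carries a message that no fluid was detected. Levels in a culture cannot tell fewer expressing cells from less RNA per cell. Fibroblast and feeder markers, 12 genes, summed to 798, 762 and 567 units in IM8A1-II, XEN1-3 and IM8A1-I, against 1209 in ES cells. Of these genes 8, 7 and 9 were under the limit in these cultures and 6 in ES cells. Tagln alone gave 538 units of this sum in ES cells, against 213.5, 36.1 and 37.7 in the XEN cultures. Col1a2 was higher in XEN, at 353, 403 and 352 units, against 206 in ES cells. Acta2 was higher than in ES cells in XEN1-3 only, at 163 against 146 units. Trophoblast markers summed to 240, 133 and 143 units in these XEN cultures, against 969 in ES cells, over 7 genes, of which 5, 5 and 6 were under the limit, against 2 in ES cells, with Cdx2 and Elf5 under the limit on all arrays. Tfap2c alone gave 767 units of the trophoblast sum in ES cells. Plac1 went the other way, at 134, 46.0 and 85.3 units in these XEN cultures, against 43.4 in ES cells. Whether feeder or trophoblast cells had a part in the differences below was not tested.

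Promoter sequences are shown for the 3 genes with the largest XEN-over-ES differences among those with a listed window, and for B3gnt2, the gene with the opposite difference. They are RefSeq windows of 300 bases, from 250 before to 50 after a listed transcript start, of build GRCm38.p6, written in the direction of transcription. Capitals mark the GATA-type motif AGATAA, here in its reverse complement TTATCT. For Fut8 and St3gal6, which have several listed starts, the window shown is the only one of the gene that holds this motif.
Fut8 (chr12:77237854-77238153, plus strand, 1 of 4 listed starts): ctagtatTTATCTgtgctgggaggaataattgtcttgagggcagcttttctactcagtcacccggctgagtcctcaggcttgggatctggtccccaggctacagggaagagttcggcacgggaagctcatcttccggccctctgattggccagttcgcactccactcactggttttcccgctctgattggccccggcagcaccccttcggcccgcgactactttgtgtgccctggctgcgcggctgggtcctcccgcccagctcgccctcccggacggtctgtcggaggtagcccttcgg
St3gal6 (chr16:58524204-58524503, minus strand, 1 of 2 listed starts): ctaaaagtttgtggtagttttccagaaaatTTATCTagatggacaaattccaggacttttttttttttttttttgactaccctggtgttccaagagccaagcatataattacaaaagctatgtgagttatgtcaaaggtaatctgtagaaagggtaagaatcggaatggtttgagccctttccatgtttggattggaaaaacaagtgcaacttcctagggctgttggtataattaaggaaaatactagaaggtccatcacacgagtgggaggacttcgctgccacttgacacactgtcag
B4galnt2 (chr11:95914822-95915121, minus strand): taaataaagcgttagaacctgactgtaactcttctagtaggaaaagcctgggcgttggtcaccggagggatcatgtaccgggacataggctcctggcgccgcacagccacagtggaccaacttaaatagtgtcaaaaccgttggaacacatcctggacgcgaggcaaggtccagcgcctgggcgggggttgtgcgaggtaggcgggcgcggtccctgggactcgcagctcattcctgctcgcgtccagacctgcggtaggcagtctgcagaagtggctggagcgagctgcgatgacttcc
B3gnt2 (chr11:22859686-22859985, minus strand): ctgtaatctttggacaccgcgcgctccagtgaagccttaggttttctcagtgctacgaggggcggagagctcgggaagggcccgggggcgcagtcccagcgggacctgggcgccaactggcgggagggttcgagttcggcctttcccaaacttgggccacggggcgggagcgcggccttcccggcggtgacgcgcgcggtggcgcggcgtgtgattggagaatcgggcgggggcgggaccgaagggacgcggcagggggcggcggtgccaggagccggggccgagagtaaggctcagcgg

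Windows were listed for 8 of the 11 enzymes past the threshold described next, 14 windows in all. AGATAA, searched on both strands, lay in the printed Fut8 and St3gal6 windows and in no other of the 14. Over all members it lay in 5 of 60 windows, or 8.33%, against 11.2% of all 32851 windows. ACAATG, a SOX-type motif, lay in 3.33% of the member windows and 12.6% of all windows. The octamer ATGCAAAT lay in 3.33% and 1.74%. No matches of different motifs overlapped, and a match is a description only. The printed B3gnt2 window was 71.3% G or C with 37 CpG dinucleotides, and the B4galnt2 window was 59.0% with 21. The printed Fut8 window was 61.7% with 18, and the printed St3gal6 window 38.7% with 3. The windows not printed ranged from 35.3% with 0 to 76.3% with 39 for Fut8, and that of St3gal6 was 64.7% with 20.

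The comparison of XEN with ES cells asked which glycan-forming enzymes differ between these lineages of the early embryo. At an adjusted p under 0.05 in limma's moderated test, 10 members were higher in XEN and 1 was lower, and 36 did not pass. The 10 were B4galnt2, St3gal1, Fut8, St3gal6, Gcnt1, Mgat2, Man1a2, Galnt2, B4galt3 and B4galt1, and the gene that was lower was B3gnt2. The share higher was 21.3% of the 47 tested, against 5.75% of all 6345 genes tested, each with 1 probe set. The share lower was 2.13%, against 5.37% of all genes tested, and it is B3gnt2 alone, whose second probe set gave 0.95 in log2. With the probe set of highest mean log2 for each gene, 0 members were lower in limma's test, and 6 had a negative difference with unadjusted p under 0.05. Over all tested probe sets the shares were 5.58% higher and 5.05% lower. Without a filter on dim genes 10 of all 65 members were higher and 3 lower, where 3.05% of all genes were higher and 3.56% lower. The median difference of the 47 was 0.61, against 0.03 over all genes tested, and without a filter 0.33 for the 65, against 0.04 over all genes. At an unadjusted p under 0.05, 19 members were higher and 7 lower, where 14.9% of all genes tested were higher and 15.2% lower. Leaving out 1 culture changed several calls. Members higher numbered 4 without IM8A1-I, 5 without IM8A1-II and 14 without XEN1-3, where 2.29%, 2.89% and 9.52% of all genes were higher. Each such fit also has fewer arrays to estimate the spread, and the part of any 1 culture was not tested. Without XEN1-3, here and below, the spread is only that between 2 cultures of 1 line, IM8A1. Members lower numbered 1 without IM8A1-I, 1 without IM8A1-II and 3 without XEN1-3, where 2.28%, 2.65% and 9.07% of all genes were lower. Counting each XEN line once left 6 higher and 1 lower, beside 4.26% and 4.05% of all genes.

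**Figure D1:**
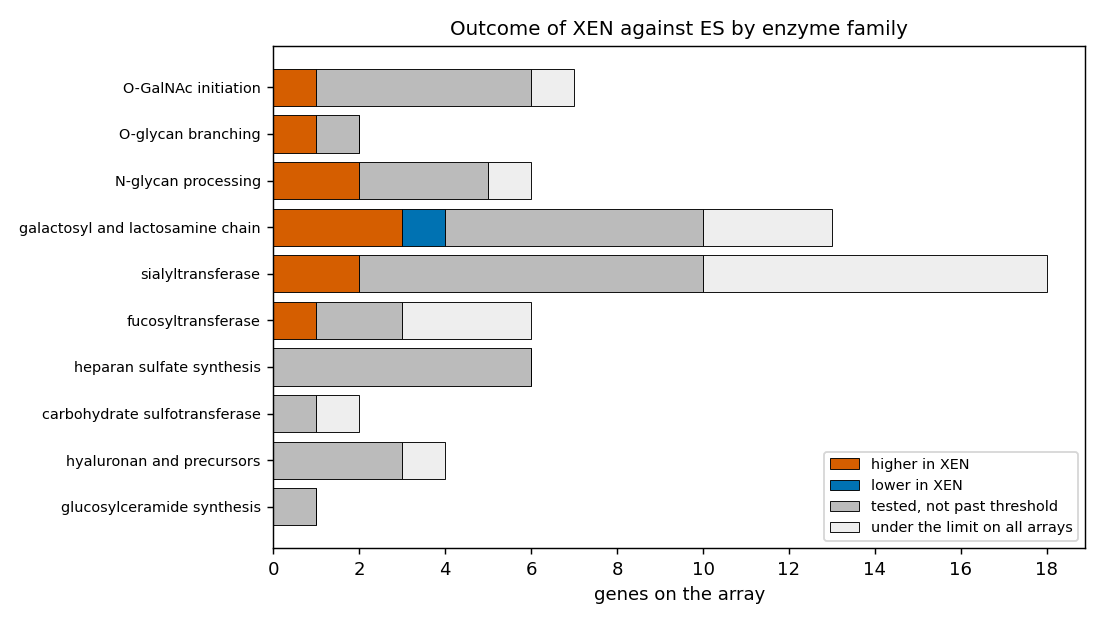
Number of genes on the array in each enzyme family, divided by the outcome of XEN against ES: higher in XEN, lower in XEN, tested without passing the threshold, and under the background limit on all arrays. The 10 higher genes are spread over 6 of the 10 families, and the 1 lower gene lies in the galactosyl and lactosamine chain family.

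In all 3 XEN cultures alike, 15 members were at least 2-fold above ES cells and 4 were at least 2-fold below. That is 31.9% and 8.51% of the 47, against 8.1% and 8.12% of all genes tested, so the lower share lay near the background. All 11 called members were among these 19. The others were Ext1, B3galnt1, Man1a, St3gal5 and B4galnt1 on the higher side and St6gal1, Fut9 and St8sia1 on the lower side.

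**Figure D2:**
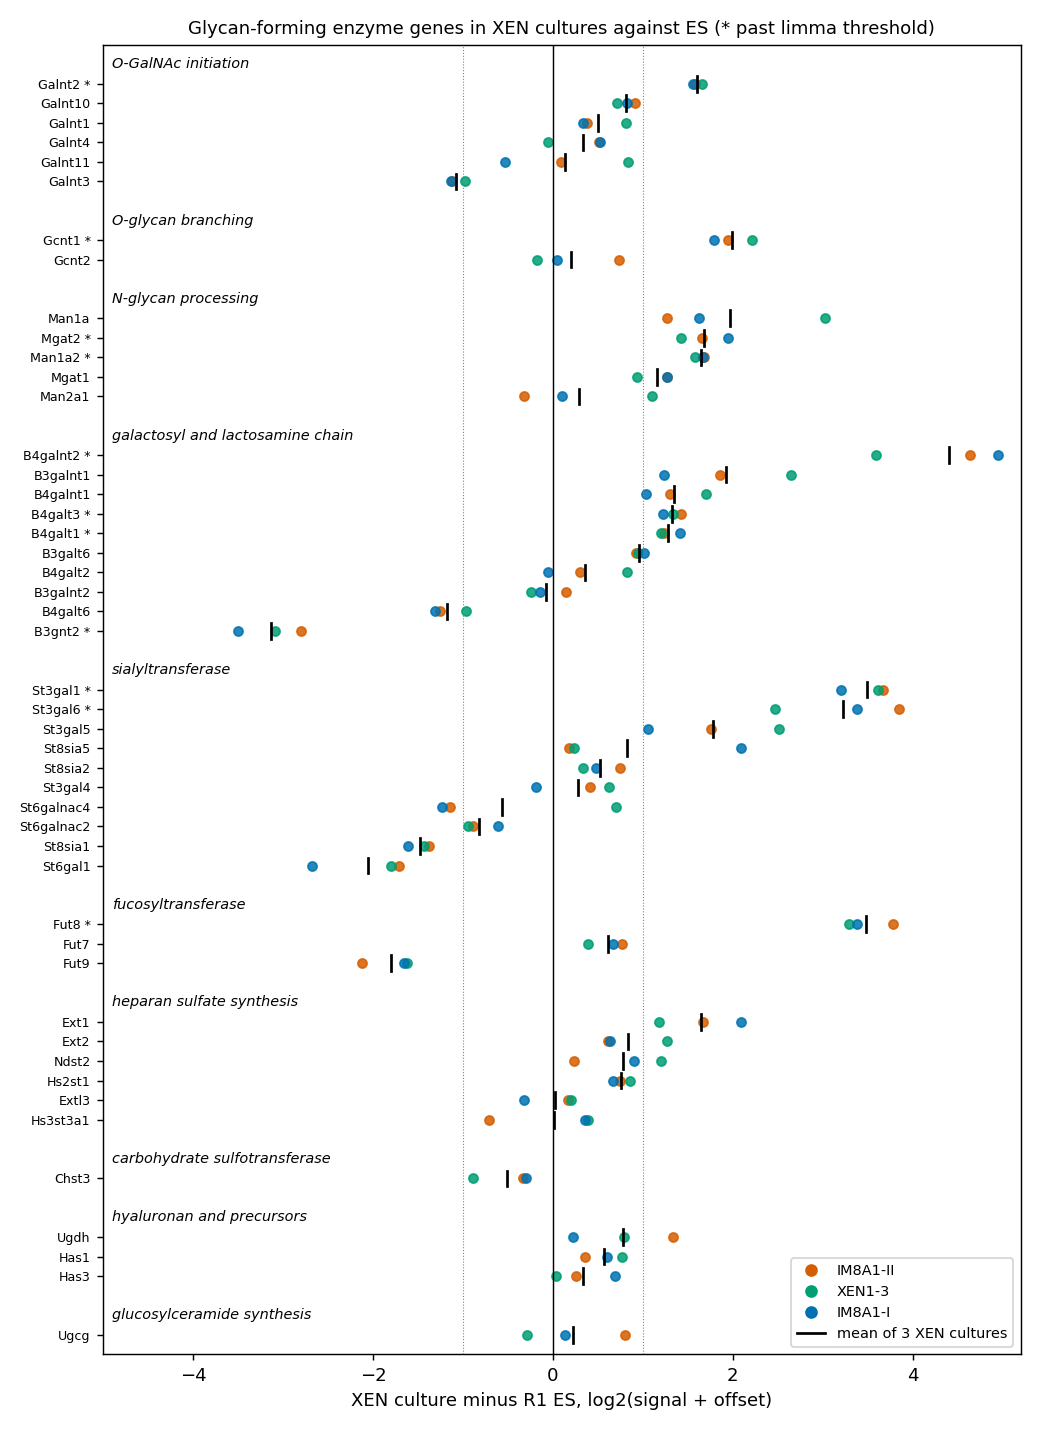
Difference of each XEN culture from ES cells on the log2(signal + offset) scale for the 47 tested genes, grouped by family, with 1 coloured point per culture and a black bar at their mean. Dotted lines mark 2-fold and asterisks mark genes past the threshold. B4galnt2, St3gal1, Fut8 and St3gal6 lie farthest to the right and B3gnt2 farthest to the left.

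Of 6 fucosyltransferases on the array 3 were tested, of which 1 was higher and 2 did not pass. Fut8, which adds the core fucose of N-glycans, read 981 units in IM8A1-II, 694 in XEN1-3 and 738 in IM8A1-I, against 61.5 in ES cells. Every XEN culture lay far above ES cells, and the XEN mean was 804 ± 155 (SD, n = 3). The difference was 3.48 ± 0.31 in log2 (SE, limma adjusted p = 0.00533) and passed under each of the 13 alternative settings, with adjusted p from 0.00111 to 0.0197. Fut9, singled out here after its values were seen because it makes Lewis X, read 1.0, 5.8 and 5.3 units in the same XEN cultures, against 39.6 in ES cells. All 3 XEN values were under the limit, so that it was at least 1.45-fold lower in XEN. The difference of -1.80 ± 0.46 did not pass (adjusted p = 0.0626). Its adjusted p was 0.0348 without a filter, 0.0319 without a variance trend and 0.0369 when the 50th percentile served as offset. Raising values to the limit gave 0.00539 with a smaller difference of -0.54. That step makes the 3 XEN values equal and removes their spread, so this p is no support for a fall. Fut7, known for sialyl Lewis X on leukocytes, read 57.2, 41.5 and 52.3 units in XEN, against 29.1 in ES cells (adjusted p = 0.263).

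Sialyltransferases cap chains with sialic acid, and of 18 on the array 10 were tested, of which 2 were higher and 8 did not pass. St3gal1, which sialylates the galactose of simple O-glycans, read 483 units in IM8A1-II, 464 in XEN1-3 and 347 in IM8A1-I, against 28.3 in ES cells. The XEN mean was 431 ± 73.5 (SD, n = 3), and ES cells sat at the background limit. The difference was 3.49 ± 0.31 (adjusted p = 0.00533), past the threshold in each of the 13 alternatives. St3gal6, which sialylates lactosamine ends, read 362, 133 and 259 units in the same order, against 15.4 in ES cells. With ES cells under the limit it was at least 8.49-fold higher in XEN (log2 difference 3.23 ± 0.54, adjusted p = 0.0234). XEN1-3 was the lowest of the 3, though still above ES cells. The call of St3gal6 was lost without IM8A1-I (adjusted p = 0.0605) and when values were raised to the limit (0.116).

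St3gal5, the synthase of ganglioside GM3, read 152 units in IM8A1-II, 264 in XEN1-3 and 89.0 in IM8A1-I, against 37.3 in ES cells. All 3 cultures were at least 2-fold above ES cells on the log2 scale, but they differed among themselves, and 1.78 ± 0.56 did not pass (adjusted p = 0.101, and 0.0442 without XEN1-3). Other sialyltransferases had their highest value in ES cells. St6gal1, which caps N-glycans with sialic acid in another linkage, read 12.9, 11.5 and 1.4 units in XEN, against 65.9 in ES cells. Its difference of -2.06 ± 0.52 did not pass (adjusted p = 0.0622). It passed without XEN1-3 (0.0452), where only the IM8A1 cultures give the spread, and when the 50th percentile served as offset (0.0296). Raising values to the limit made its XEN values equal, so the adjusted p of 0.0022 there is no support. The other St6gal1 probe set was under the limit on all arrays and pointed the other way. It read 24.3, 23.5 and 8.7 units in XEN, against 7.1 in ES cells. St8sia1, the synthase of ganglioside GD3, read 6.5, 5.9 and 4.0 units in XEN, against 33.8 in ES cells. Its log2 difference of -1.48 ± 0.42 did not pass (adjusted p = 0.0801). It passed with no filter (0.0324) and with no variance trend (0.0347). Raising values to the limit gave 0.014, again with the XEN values made equal and their spread removed. Both genes, named after their values were seen, were under the limit in all XEN cultures and above it in ES cells. St8sia2, a polysialyltransferase, ranged from 62.0 to 85.4 units in XEN, against 46.6 in ES cells, without passing (adjusted p = 0.311). Among the other sialyltransferases tested, St3gal4 was at 0.28 in log2 (adjusted p = 0.670) and St6galnac2 at -0.82 (adjusted p = 0.158).

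The family that extends chains with galactose, N-acetylgalactosamine and N-acetylglucosamine had 13 genes on the array and 10 tested, of which 3 were higher, 1 was lower and 6 did not pass. B4galnt2, the transferase that completes the Sda blood group antigen, read 619 units in IM8A1-II, 293 in XEN1-3 and 770.3 in IM8A1-I, against 14.7 in ES cells. It was at least 19-fold higher in XEN (log2 difference 4.40 ± 0.55, adjusted p = 0.0110), and its second probe set also passed, at 188, 61.7 and 214 units in XEN, against 6.8 in ES cells (adjusted p = 0.0429). XEN1-3 was the lowest XEN culture on both probe sets. Raising values to the limit removed the call (adjusted p = 0.0741).

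B4galt1 and B4galt3 add the galactose of lactosamine. B4galt1 read 951 units in IM8A1-II, 926 in XEN1-3 and 1071 in IM8A1-I, against 397 in ES cells, and rose by 1.28 ± 0.26 (adjusted p = 0.0359). B4galt3 read 311, 294 and 270 units in XEN, against 110 in ES cells, and rose by 1.33 ± 0.27 (adjusted p = 0.0348). The XEN cultures agreed closely on both genes and did not overlap with ES cells, which goes with picking genes by this test. The adjusted p-values of B4galt1 and B4galt3 were 0.111 and 0.0889 with IM8A1-I left out, 0.0833 and 0.0964 with IM8A1-II left out, and 0.0706 and 0.0661 when each line counted once. B4galt1 also missed with median scaling (adjusted p = 0.0514).

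B3gnt2, the main enzyme that extends polylactosamine, was the 1 member called lower. It read 15.5 units in IM8A1-II, 10.7 in XEN1-3 and 5.4 in IM8A1-I, against 170.0 in ES cells. All XEN values lay under the limit, and the gene was at least 6.23-fold lower in XEN (log2 difference -3.13 ± 0.41, adjusted p = 0.0131). Its other probe set pointed the other way, at 74.6, 59.2 and 38.8 units in XEN, against 23.8 in ES cells (log2 difference 0.95 ± 0.40, adjusted p = 0.179). The direction for this gene therefore depends on the probe set. The probe set that fell has the higher mean signal only through its ES value, and the other was the brighter in every XEN culture.

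Other chain-extending enzymes did not pass. B3galnt1, which makes the globoside chain, read 124 units in IM8A1-II, 223 in XEN1-3 and 77.0 in IM8A1-I, against 26.5 in ES cells, at least 4.71-fold higher (adjusted p = 0.0813, and 0.0319 without XEN1-3). B4galt6, a lactosylceramide synthase named after its values were seen, read 106, 131 and 102 units in XEN, against 268 in ES cells (log2 difference -1.18 ± 0.29, adjusted p = 0.0567). All 3 XEN cultures lay below ES cells for B4galt6, and it passed without XEN1-3 (adjusted p = 0.0244), with median scaling (0.0487) and with a filter at the 60th percentile (0.0499). B4galnt1, which makes gangliosides of the GM2 type, read 28.9, 41.5 and 22.4 units in XEN, against 5.5 in ES cells (adjusted p = 0.0934). The remaining ones were B3galt6, which builds the linker of glycosaminoglycans, at 0.96 in log2 (adjusted p = 0.0977, or 0.0263 after raising values to the limit), B4galt2 at 0.36 (0.603) and B3galnt2 at -0.08 (0.909).

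**Figure D3:**
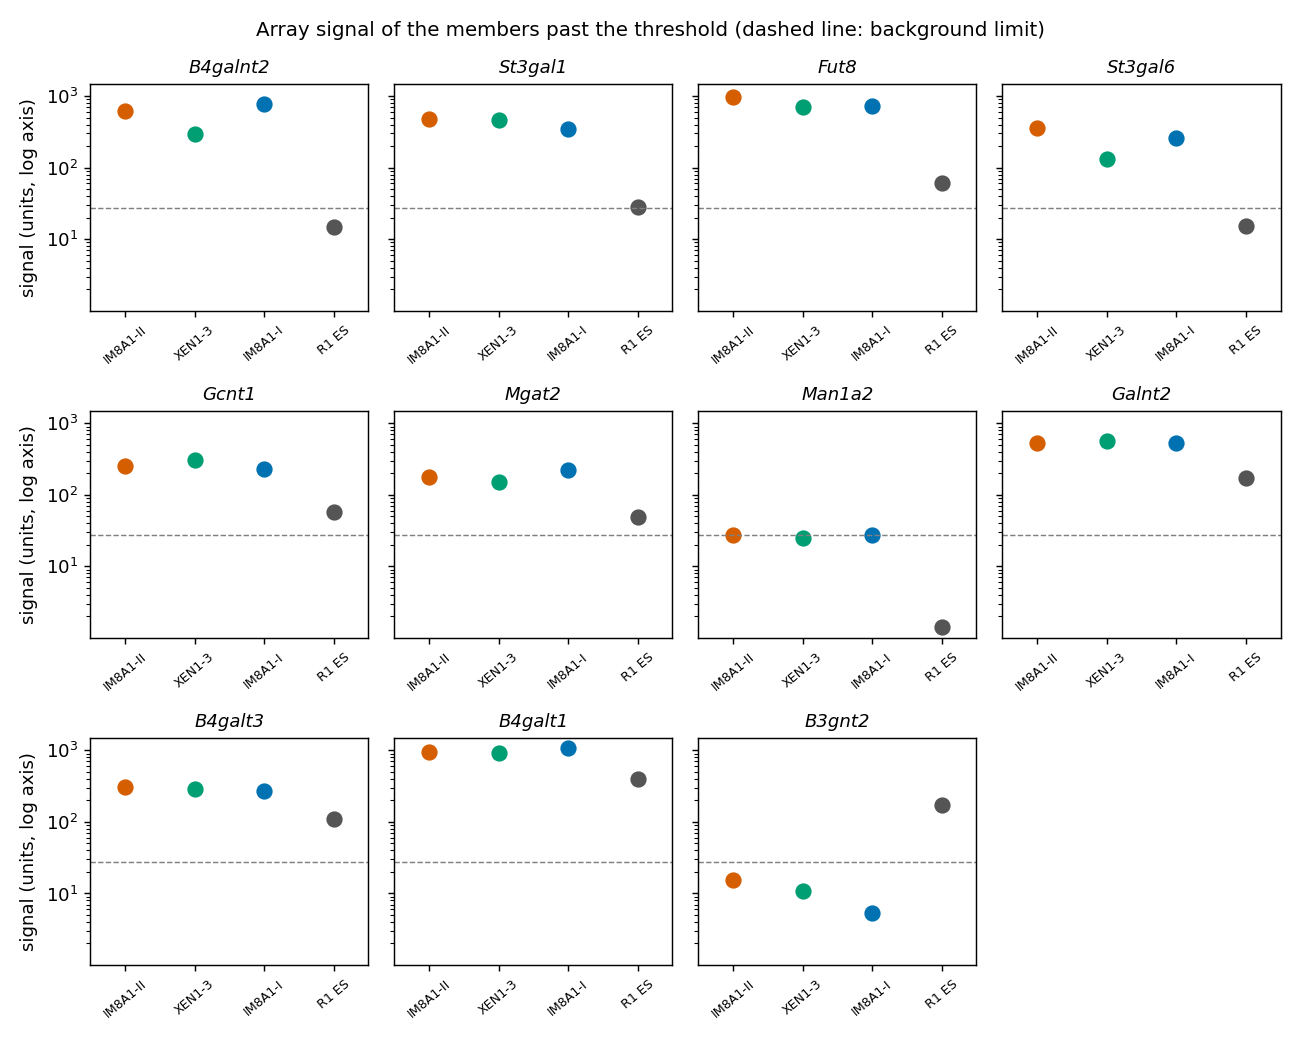
Signal on each array, on a log axis in units, for the 11 genes past the threshold, with the XEN cultures IM8A1-II, XEN1-3 and IM8A1-I left of R1 ES. The dashed line is the background limit of 27.3 units. The genes were picked by the test of XEN against ES, so the lack of overlap between XEN and ES values in the panels is no added support. Man1a2 sits at the limit in XEN, and B3gnt2 is the only panel with ES cells on top.

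Of 6 N-glycan processing genes on the array 5 were tested, of which 2 were higher and 3 did not pass. Mgat2, needed to make complex N-glycans, read 178 units in IM8A1-II, 150 in XEN1-3 and 220 in IM8A1-I, against 49.1 in ES cells, and rose by 1.68 ± 0.31 (adjusted p = 0.0303). Mgat1, which acts before it, read 369, 292 and 370.2 units in XEN, against 147 in ES cells. Its difference of 1.16 ± 0.29 just missed the threshold (adjusted p = 0.0590, but 0.0261 without XEN1-3 and 0.0499 with a filter at the 60th percentile), and its second probe set gave 1.13 ± 0.31 (adjusted p = 0.0723). Both Mgat genes thus stood above ES cells in every XEN culture. Mgat2 missed the threshold with IM8A1-I left out (adjusted p = 0.0745), with IM8A1-II left out (0.0732), when each line counted once (0.0526) and when values were raised to the limit (0.0694).

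Man1a and Man1a2 encode mannosidases that trim N-glycans in the Golgi. Man1a read 49.2 units in IM8A1-II, 192 in XEN1-3 and 66.0 in IM8A1-I, against 14.3 in ES cells, at least 3.13-fold higher. XEN1-3 stood well above the other XEN cultures, and 1.97 ± 0.69 did not pass (adjusted p = 0.125, and 0.0421 without XEN1-3). Man1a2 read 27.6, 25.2 and 27.4 units in XEN, against 1.4 in ES cells, and was called (log2 difference 1.65 ± 0.37, adjusted p = 0.0458). Its XEN values lie at the background limit, so no fold is given, and raising values to the limit brought the difference to 0.01 (adjusted p = 0.825). The call of Man1a2 was also lost without any 1 of the XEN cultures (adjusted p of 0.135 without IM8A1-II, 0.0664 without XEN1-3 and 0.148 without IM8A1-I), when each line counted once (0.0879) and when the 50th percentile served as offset (0.064). Man2a1, the mannosidase of the next trimming step, read 140 units in IM8A1-II, 394 in XEN1-3 and 192 in IM8A1-I, against 178 in ES cells, and overlapped with ES cells (adjusted p = 0.766).

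Among the enzymes of mucin-type O-glycans, 1 initiating and 1 branching enzyme rose. Galnt2, which starts chains by adding N-acetylgalactosamine to serine or threonine, read 531 units in IM8A1-II, 561 in XEN1-3 and 524 in IM8A1-I, against 171 in ES cells. The XEN values were nearly alike, with a mean of 539 ± 19.8 (SD, n = 3), and the rise was 1.60 ± 0.26 (adjusted p = 0.0207). The call was lost when either IM8A1 culture was left out, with an adjusted p of 0.0679 without IM8A1-I and 0.0604 without IM8A1-II. The difference stayed at 1.62 and 1.61 in these fits. Gcnt1, the main branching enzyme of O-glycans, read 255, 309 and 226 units in the same order, against 57.9 in ES cells. It rose by 1.99 ± 0.30 (adjusted p = 0.0173) and passed in each of the 13 alternatives, with a highest adjusted p of 0.0492. The other 5 Galnt genes tested did not pass, with Galnt10 at 0.81, Galnt1 at 0.50, Galnt4 at 0.33 and Galnt11 at 0.13 in log2. Galnt3, named after its values were seen, read 23.4, 27.0 and 23.2 units in XEN, against 63.3 in ES cells (adjusted p = 0.0882). Raising values to the limit gave 0.00220, since the XEN values then became equal and lost their spread. Gcnt2, which branches lactosamine chains, read 61.8, 27.8 and 34.4 units in XEN, against 32.8 in ES cells, and overlapped with them.

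None of the 6 heparan sulfate enzymes passed limma's test, and 2 were higher by unadjusted p under 0.05, the level that 14.9% of all genes reached on that side. Ext1, a subunit of the heparan sulfate polymerase, read 562 units in IM8A1-II, 396 in XEN1-3 and 756 in IM8A1-I, against 169 in ES cells. Every XEN culture was above ES cells, and 1.65 ± 0.40 missed the threshold narrowly (adjusted p = 0.0572). It passed with a filter at the 60th percentile (adjusted p = 0.0496). It also passed without XEN1-3 (0.0109), where the spread is only that between the 2 IM8A1 cultures. Its partner Ext2 read 175, 282 and 178 units in XEN, against 111 in ES cells (adjusted p = 0.189). Hs2st1, a sulfotransferase of the uronic acids, read 87.5, 95.6 and 82.2 units in XEN, against 47.8 in ES cells (adjusted p = 0.135). Extl3, which starts heparan sulfate chains, overlapped with ES cells, at 200, 205 and 139 units in XEN, against 176 in ES cells. The sulfotransferases Ndst2, at 0.78 in log2 (adjusted p = 0.340), and Hs3st3a1, at 0.01 (0.992), were dim on all arrays.

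The remaining families had few measured members and no call. Ugdh, which makes the UDP-glucuronic acid used for glycosaminoglycans, read 951 units in IM8A1-II, 645 in XEN1-3 and 431 in IM8A1-I, against 369 in ES cells (log2 difference 0.78 ± 0.46, adjusted p = 0.308). The hyaluronan synthases were dim, with Has3 at 26.7, 21.3 and 39.6 units in XEN, against 20.5 in ES cells, and Has1 at 18.1, 27.4 and 23.3 units in XEN, against 11.8 in ES cells. Chst3, a chondroitin sulfotransferase, read 65.5, 41.0 and 66.9 units in XEN, against 85 in ES cells (adjusted p = 0.387). Ugcg, which makes the glucosylceramide core of most glycosphingolipids, read 493, 227 and 310.0 units in XEN, against 280 in ES cells (adjusted p = 0.788). XEN1-3 lay below ES cells on this probe set. The second Ugcg probe set read 55.3, 49.5 and 48.1 units in XEN, against 15.9 in ES cells, all XEN values being higher (log2 difference 1.22 ± 0.31, adjusted p = 0.0605).

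The XEN cultures were also set against each other, array against array and without a test, over genes that reached the limit on at least 1 of the arrays compared. IM8A1-II and IM8A1-I are the same line in different culture conditions. Of 39 members, 1 was at least 2-fold higher in IM8A1-II and 2 were lower, or 2.56% and 5.13%, against 3.56% and 2.69% of all genes. The member that was higher was Ugdh, with a log2 difference of 1.12. St8sia5, a sialyltransferase of gangliosides, read 15.3 units in IM8A1-II and 86.1 in IM8A1-I, against 12.2 in ES cells, so that IM8A1-I alone reached the limit. Hs3st3a1, a heparan sulfate sulfotransferase, read 7.9 units in IM8A1-II and 28.3 in IM8A1-I. Visceral endoderm markers summed to 4979 units in IM8A1-II, 1701 in XEN1-3 and 2170 in IM8A1-I, over 9 genes, with Rbp4 alone at 2671, 130 and 171 units and Apoa1 under the limit on all arrays. Their part in these differences was not tested.

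XEN1-3 differs from IM8A1-I in line, strain and passage, with the labelled substrate and medium alike. Of 41 members, 5 were at least 2-fold higher in XEN1-3 and 2 were lower, or 12.2% and 4.88%, against 4.53% and 4.53% of all genes. The higher ones were St6galnac4, a sialyltransferase of O-glycans, St3gal5, B3galnt1, Man1a and Galnt11, with log2 differences of 1.93, 1.47, 1.41, 1.40 and 1.37. St6galnac4 read 63.3 units in XEN1-3 and 8.9 in IM8A1-I, and it was also low in IM8A1-II at 10.2. Galnt11, named after its values were seen, read 177 units in XEN1-3 and 61.8 in IM8A1-I. The lower ones were St8sia5, at -1.86, and B4galnt2, at -1.36. Man2a1 lay just under 2-fold, with 394 units in XEN1-3 and 192 in IM8A1-I. Both of these comparisons use the IM8A1-I array, and a single deviating value there enters both, as for St8sia5.

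**Figure D4:**
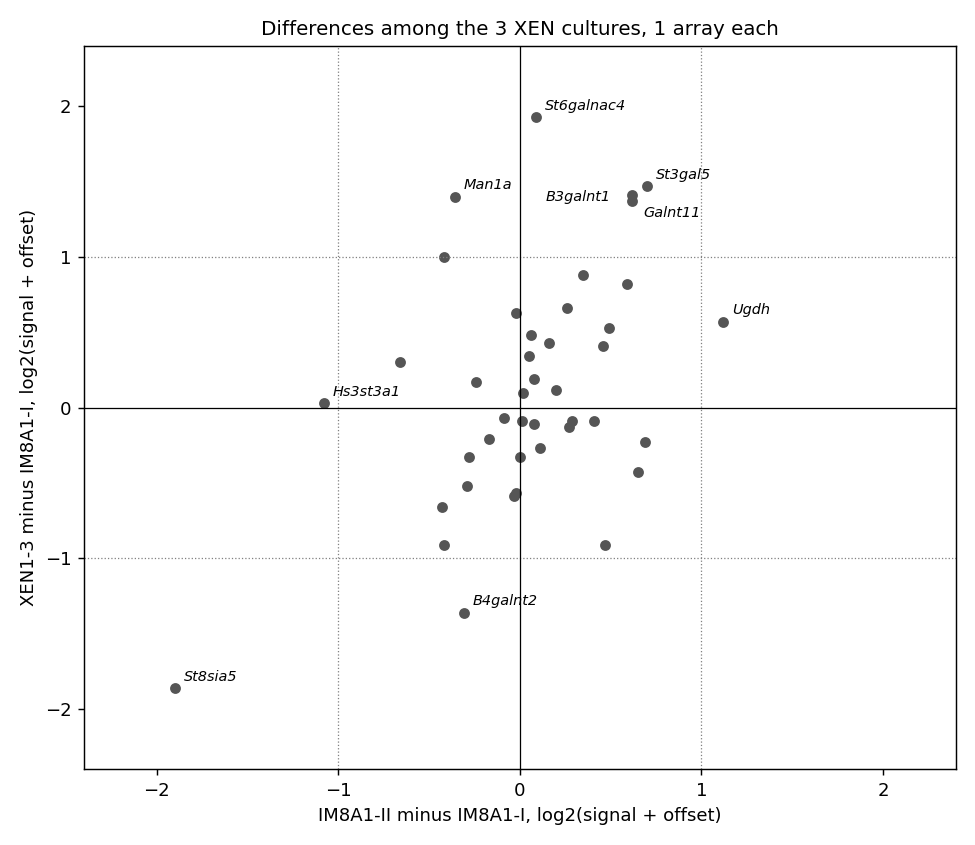
Log2(signal + offset) difference of XEN1-3 from IM8A1-I (vertical axis) against that of IM8A1-II from IM8A1-I (horizontal axis) for the 42 genes at or above the limit in at least 1 XEN culture. Each point is 1 gene, dotted lines mark 2-fold, and genes at least 2-fold apart in either comparison are named. Most points lie within 2-fold on both axes, and the axes share the IM8A1-I array.

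Genes that serve the same chains from other positions in the pathway were read from lists drawn up by function. Of 23 tested genes that supply sugar and sulfate donors, 0 were higher in limma's test, 2 were lower and 21 did not pass, beside 5.75% of all genes higher and 5.37% lower. By unadjusted p under 0.05, 4 of the 23 were higher and 6 lower, beside 14.9% and 15.2% of all genes. Gfpt2, an isoform of the enzyme at the entry to hexosamine synthesis, read 92.6 units in IM8A1-II, 64.9 in XEN1-3 and 46.2 in IM8A1-I, against 522 in ES cells, and fell by 2.81 in log2 (adjusted p = 0.0144). Pmm1, a phosphomannomutase, read 232, 335 and 257 units in XEN, against 893 in ES cells, and fell by 1.68 (adjusted p = 0.0297). Raising values to the limit ended both calls (adjusted p of 0.0745 for Gfpt2 and 0.0723 for Pmm1). Pmm1 also missed when IM8A1-I (0.0858) or IM8A1-II (0.0722) was left out and when each line counted once (0.0584). The median difference of this list was 0.32.

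Of 11 tested genes on the early N-glycan trimming list, which also holds lectins such as Canx and Lman1, 2 were higher and 0 lower. Of all genes tested 5.75% were higher and 5.37% lower. The median was 0.99, against 0.03 over all genes tested. By unadjusted p under 0.05 in limma, 8 of the 11 were higher and 0 lower, beside 14.9% and 15.2% of all genes. The 2 past the threshold were the subunits of glucosidase II, the enzyme that trims glucose in the endoplasmic reticulum. Ganab, the catalytic subunit, read 1219 units in IM8A1-II, 1032 in XEN1-3 and 1552 in IM8A1-I, against 440 in ES cells (log2 difference 1.49 ± 0.32, adjusted p = 0.0418). Prkcsh, its partner, read 1202, 1380 and 1258 units in XEN, against 587 in ES cells (1.11 ± 0.25, adjusted p = 0.0496). With IM8A1-I left out their adjusted p-values were 0.101 and 0.137, with IM8A1-II left out 0.0868 and 0.0937, and that of Prkcsh was 0.0507 with XEN1-3 left out, all past 0.05. Of the 13 alternatives, Ganab kept its call in 6 and Prkcsh in 5, with adjusted p up to 0.101 and 0.137.

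Of 16 tested genes of lipid-linked glycan assembly and the oligosaccharyltransferase, 6 were higher and 0 lower by unadjusted p under 0.05 in limma. Of all genes 14.9% and 15.2% were. The median was 0.70, against 0.03 over all genes tested. By adjusted p 1 of the 16 was higher and 0 lower, near the 5.75% and 5.37% of all genes. It was Stt3a, a catalytic subunit that transfers the N-glycan to proteins, at 124, 126 and 114 units in XEN, against 44.6 in ES cells (adjusted p = 0.0419, but 0.0974 with IM8A1-I left out, 0.103 with IM8A1-II left out, 0.0716 with no filter and 0.0705 when each line counted once). The glycosaminoglycan genes outside the set (4 tested, median 0.59), the O-fucose, O-mannose and O-GlcNAc genes (8 tested, median -0.04) and the sialidase and fucosidase genes (2 tested, median 0.94) had 0 calls in limma's test. By unadjusted p under 0.05, 2, 1 and 1 of them were higher and 0 were lower. Over the 6 lists 5 of 64 tested genes were called, where 5.75% of all genes were higher and 5.37% lower. With IM8A1-I left out 1 of 63 was called, beside 2.29% higher and 2.28% lower. With IM8A1-II left out 1 of 64 was called, beside 2.89% and 2.65%. With XEN1-3 left out 10 of 63 were called, beside 9.52% and 9.07%.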

How the data were processed

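Total RNA of 3 XEN cultures and 1 ES culture was hybridised to 1 array each. The deposited values are intensities on a linear scale, 1 summary per probe set and array. The sources used here do not state how each probe set was summarised. For the 4 arrays the authors' deposited intensities already had nearly equal 2% trimmed means (150.088 to 150.095). Precision is limited by the number of arrays. Gene names came from GEO's platform annotation, which can be old, with 10833 of 12488 probe sets having a single symbol.

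The intensities were scaled to a common trimmed mean, 10.5 units were added, and log2 was taken. The 66 control probe sets were left out. Probe sets at or above 27.3 units on at least 1 array, 8582 in all, were tested in R 4.3.3 by limma 3.58.1, using lmFit and a trended eBayes, two-sided, with Benjamini-Hochberg adjustment over all of them. The fit had 2 residual degrees of freedom, all from the XEN cultures. It was also run on simulated data, where all arrays were independent and ES cells had the XEN spread. That run cannot check whether ES cells vary alike. Standard errors are limma's. "At least" folds set the geometric mean of the brighter group against 27.3 units. Alternatives changed the offset, floor, filter, variance trend, scaling, probe set choice and cultures used. Using all probe sets of each member was added after seeing the data.

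Values are given for members past the threshold, for members at least 2-fold from ES cells in all XEN cultures and reaching 84.7 units, for the 4 largest differences each way between XEN cultures and for the brightest member of each family. Fut7, Fut9, St6gal1, St8sia1, St8sia2, B4galnt1, B4galt2, B4galt6, B3galt6, B3galnt2, St3gal4, St6galnac2, Galnt1, Galnt3, Galnt4, Galnt10, Galnt11, Ext2, Extl3, Hs2st1, Ndst2 and Has1 were singled out after their values were seen. The members and all gene lists were chosen with earlier results of these data known. Promoter windows are from RefSeq, GRCm38.p6, and 44 members matched by symbol. No protein sequences were used here.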

Additional observations from a re-analysis of the deposited data

Results flagged for a closer look

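For 4 of the 47 tested members XEN1-3 differed from ES cells in one direction and both IM8A1 cultures in the other, on the log2(signal + offset) scale. These differences between the lines were not tested, and none of the 4 genes passed the test of XEN against ES. St6galnac4 was at 0.70 in XEN1-3, against -1.14 in IM8A1-II and -1.23 in IM8A1-I. Ugcg was at -0.29 in XEN1-3, against 0.80 in IM8A1-II and 0.14 in IM8A1-I, and its second probe set was above ES cells in all 3. Gcnt2 was at -0.18 in XEN1-3, against 0.74 in IM8A1-II and 0.05 in IM8A1-I. Near the limit, it read 27.8 units in XEN1-3 and 34.4 in IM8A1-I, against 32.8 in ES cells. Galnt4, which starts O-glycans, was at -0.05 in XEN1-3, against 0.51 in IM8A1-II and 0.53 in IM8A1-I. Its signal was under the limit in XEN1-3, at 20.7 units, and in ES cells, at 21.7. The second Galnt4 probe set was below ES cells in all 3.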

How the results depend on the processing

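No paired analysis was possible because no label pairs a XEN culture with the 1 ES culture. The replicate numbers follow accession order and pair nothing. The count of members higher in XEN, 10, was 6 of 47 with each XEN line counted once, beside 4.26% of all genes. It ranged from 4 to 14 when 1 XEN culture was left out, beside the shares of all genes given above. The other alternatives gave 7 to 11. The count of 7, of 47 tested, came from values raised to the limit, beside 2.98% of all genes. A filter at the 60th percentile gave 11 of 28, beside 8.04%. The count lower in XEN, 1, was 3 of 47 when the 50th percentile served as offset, beside 6.52% of all genes. It was 3 of 65 without a filter, beside 3.56%, and 3 of 47 without a variance trend, beside 5.55%. Raising values to the limit gave 5 of 47, beside 6.37%. That step made the XEN values of these 5 members equal and removed their spread. The count was 2 of 46 under median scaling, beside 6.2%, and 2 of 28 with a filter at the 60th percentile, beside 7.01%. With the probe set of highest mean log2 the count was 0 (6 lower at an unadjusted p under 0.05 in limma). It ranged from 1 to 3 with 1 XEN culture left out. Calls in the related lists, 5, numbered 2 of 64 with values raised to the limit (2.98% of all genes higher, 6.37% lower). They numbered 2 of 69 with no filter (3.05% and 3.56%) and 3 of 64 without a variance trend (5.14% and 5.55%). Median scaling gave 3 of 64 (5.08% and 6.2%) and each line once gave 1 of 64 (4.26% and 4.05%). With a culture left out the calls numbered 1 to 10. Counts of 2-fold differences between XEN cultures stayed within 1.5 times under every alternative run. Over the 47 tested members and the 5 called related genes, under the alternatives in which each was tested, 568 outcomes kept direction and side of the threshold, 46 lost and 22 gained the threshold, and 15 changed sign. B3gnt2 turned to 0.95 with the probe set of highest mean log2, since another probe set then stands for it. The other sign changes were in genes that did not pass, and their cause was not tested. With an offset of the 5th percentile Hs3st3a1 was at -0.05. Under median scaling Hs3st3a1 was at -0.05 and Extl3 at -0.08, and under quantile normalization Extl3 was at -0.01. After raising values to the limit St6galnac4 was at 0.05. With 1 XEN culture left out, Hs3st3a1 ranged from -0.18 to 0.37, Extl3 from -0.08 to 0.19, Gcnt2 from -0.06 to 0.40, Ugcg from -0.07 to 0.47, B3galnt2 from -0.19 to 0.0, Galnt11 from -0.22 to 0.47 and Man2a1 from -0.11 to 0.60. With 1 ES array, the spread of ES cells is not measured, and the 18 members under the limit have no measured difference.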
